A study of Mus musculus with 24 samples.

Results

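Bile acid synthesis and transport genes were described in mice that lack GPR120, a receptor for long-chain fatty acids encoded by Ffar4, and in wild-type mice. The 10 genes were the enzymes Cyp7a1, Cyp8b1, Cyp27a1, Cyp39a1 and Baat, the transporters Slc10a1, Slco1b2 and Abcb11, and the nuclear receptors Nr1h4 and Nr0b2, out of 18193 genes on the array. They were chosen by function, with earlier results of these data known. For each gene the probe set of highest mean log2 signal in liver was used among those assigned to that gene alone. The study put liver and epididymal adipose tissue of 12 mice on 24 Affymetrix arrays. The 4 groups, with 3 mice each, were GPR120 KO on a high fat diet (HFD), WT on HFD, KO on a normal diet (ND) and WT on ND. All mice had a mixed 129/Sv and C57BL/6 background, and each mouse gave both tissues. How the allele was made, what the diets held and how long they lasted, the age of the mice, their fasting state and the hour of collection were not stated in the labels. Sex was not stated as such, but epididymal tissue comes from males. All 10 genes passed the filter on low signals in liver (a mean signal of at least 12.95), as did 11125 genes in all, while Cyp27a1 and Cyp39a1 alone passed it in adipose tissue.

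Hepatocytes make bile acids from cholesterol, by a classical pathway that starts with Cyp7a1 and an alternative pathway that starts with Cyp27a1, and Baat then joins them to taurine or glycine. The pump Abcb11 exports them into bile, and after uptake in the gut they return by the portal blood and are taken up again by Slc10a1 and members of the Slco family. Bile acids bind the receptor Nr1h4 (FXR), which induces Nr0b2 (SHP) and Abcb11, and Nr0b2 holds down Cyp7a1 and Cyp8b1 transcription together with a signal from the gut.

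Proximal promoters are shown for Cyp8b1 and Cyp27a1, which were both lower on HFD in the KO livers, and for Nr0b2, the repressor in this loop. Each window runs from 250 bases before to 50 bases after the RefSeq start in the mouse build GRCm38.p6, at chr9:121916256-121916555 on the minus strand for Cyp8b1, chr1:74713285-74713584 on the plus strand for Cyp27a1 and chr4:133553126-133553425 on the plus strand for Nr0b2. Capitals mark the matches to the motifs searched, and the sequences read 5′ to 3′ on the gene's strand.
Cyp8b1: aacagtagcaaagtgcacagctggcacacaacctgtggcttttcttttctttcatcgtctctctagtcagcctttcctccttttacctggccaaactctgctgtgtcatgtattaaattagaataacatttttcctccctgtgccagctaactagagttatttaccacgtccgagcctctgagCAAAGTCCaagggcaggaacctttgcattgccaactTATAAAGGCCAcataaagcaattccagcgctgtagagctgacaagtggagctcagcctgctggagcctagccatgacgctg
Cyp27a1: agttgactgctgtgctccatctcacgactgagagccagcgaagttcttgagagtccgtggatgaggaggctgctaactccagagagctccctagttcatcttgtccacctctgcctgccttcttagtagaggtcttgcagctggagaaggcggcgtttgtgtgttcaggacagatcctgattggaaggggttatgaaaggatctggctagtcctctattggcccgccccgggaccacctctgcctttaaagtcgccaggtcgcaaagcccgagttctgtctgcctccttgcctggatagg
Nr0b2: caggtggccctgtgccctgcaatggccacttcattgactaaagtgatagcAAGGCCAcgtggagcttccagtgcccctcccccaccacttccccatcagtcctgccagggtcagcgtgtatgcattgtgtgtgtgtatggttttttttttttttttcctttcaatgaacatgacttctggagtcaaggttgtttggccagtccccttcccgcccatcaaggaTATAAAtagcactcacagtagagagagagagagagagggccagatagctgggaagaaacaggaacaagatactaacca
The motifs were the nuclear receptor half-site AGGTCA, the NR5A2-type words AAGGTCA and AAGGCCA, the HNF4A-type words CAAAGTCC and CAAAGGTC, the D-box words TTATGTAA and TTACGTAA and the TATA word TATAAA, each searched on both strands. The Cyp8b1 window held CAAAGTCC at -67 to -60 from the start and AAGGCCA at -27 to -21, and AAGGCCA overlapped TATAAA at -31 to -26. The Nr0b2 window held AAGGCCA at -200 to -194 and TATAAA at -28 to -23, and the Cyp27a1 window held none of these words. The Cyp27a1 window and its start site lie inside the annotated gene, which begins at 74713148, and the sequence before 74713285 was not searched. The Nr1h4 window, at chr10:89506609-89506908 on the minus strand, also lies inside its gene, which reaches to 89533645. Of 27025 windows of this length, 2.6% held an HNF4A-type word, 10.5% an NR5A2-type word, 16% a half-site, 1.06% a D-box word and 14.2% the TATA word. Among the 7 members with a window, half-sites were found in the first windows of Abcb11, Slco1b2 and Nr1h4 and in a second Slc10a1 window, and no D-box word was found.

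The deposited values were linear MAS5 signals in intensity units, and the liver array medians ranged from 13.5 to 18.8. Hepatocyte markers were abundant in all liver arrays. Their summed signal over 11 genes was 85218 to 95097 in KO HFD livers, 101671 to 114843 in WT HFD livers, 100141 to 114388 in KO ND livers and 125426 to 131476 in WT ND livers, so that the KO arrays lay below the WT arrays on each diet. No single hepatocyte marker rose in the liver comparisons of genotype or diet. The summed signal of 7 cholangiocyte markers was 66.8 to 109 over the liver arrays and that of 4 epididymis markers 19.6 to 83.8. In bulk tissue, fewer cells of a type and less RNA per cell cannot be told apart. In the adipose tissue of the same mice the Ffar4 signal ran with the labels, at 23.1 to 35.7 in KO and 58.3 to 171 in WT. In liver it was low and ran the other way, at 13.5 to 36.8 in KO and 0.55 to 17.3 in WT, and the labels do not say whether its probes fall inside the deleted stretch.

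Differences below are log2 differences of liver signals from limma with their standard errors, and a gene was called where its Benjamini-Hochberg adjusted p over all 11125 tested genes was under 0.05. In the comparison of KO with WT livers on HFD 0 of the 10 genes were called, against 6.71% of all genes. On ND 1 of 10 was called, against 4.71% of all genes. Averaged over the diets, KO livers differed from WT livers in 1 of 10 genes, against 11.6% of all genes. HFD livers differed from ND livers in 5 of 10 genes in KO mice (4 lower and 1 higher, against 16.5% of all genes) and in 3 of 10 genes in WT mice (3 lower, against 12.5% of all genes). Averaged over the genotypes 5 of 10 were called, 4 lower and 1 higher, against 25.9% of all genes. The test of whether the KO effect differed between the diets called 0 of 10, against 0.989% of all genes. The comparison of KO with WT on HFD shares its KO HFD arrays with HFD against ND in KO, and each genotype comparison on 1 diet shares 3 arrays with each diet comparison in 1 genotype. The median log2 difference of the members was 0.0014 on HFD and -0.05 on ND for KO against WT, beside -0.03 and -0.05 over all tested genes. For HFD against ND it was -0.18 in KO and -0.23 in WT, beside 0.02 and -0.0029 over all tested genes.

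**Figure D1:**
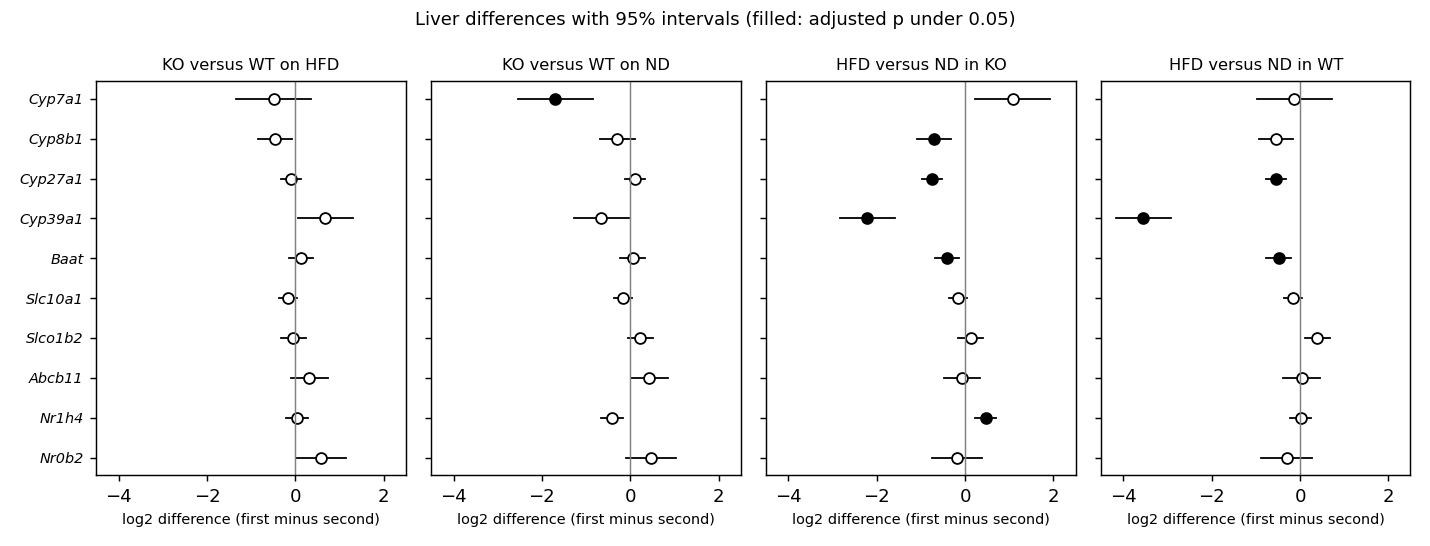
Log2 differences of the 10 genes in liver with 95% intervals from limma, in 4 panels for KO against WT on HFD and on ND and for HFD against ND in KO and in WT; filled points passed an adjusted p of 0.05. Cyp39a1 at -2.22 in KO and -3.56 in WT lies far to the left in the diet panels, and Cyp7a1 at -1.70 is the one filled point among the genotype panels.

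Cyp7a1, the rate-limiting enzyme of the classical pathway, was lower in KO livers on ND. Its signals were 151.63, 411.34 and 305.09 in KO ND livers, against 1316.92, 911.09 and 539.06 in WT ND livers. Each KO array lay below each WT array, and both groups spread widely around their means of 289 ± 131 in KO and 922 ± 389 in WT (SD, n = 3 each). The difference was -1.70 ± 0.39 (3.24-fold lower, 95% interval -2.55 to -0.84, limma adjusted p = 0.0292). The call was lost without KO mouse 718 (-1.29, adjusted p = 0.113), without KO mouse 720 (-1.79, adjusted p = 0.0719), without WT mouse 686 (-1.39, adjusted p = 0.0770) and without WT mouse 687 (-1.66, adjusted p = 0.0940). It was also lost with the mean of both probe sets (-1.12, adjusted p = 0.124) and without the variance trend (adjusted p = 0.0734). Without both the lowest KO array (718) and the highest WT array (686), an alternative chosen after the values were seen, the difference was -0.98 (1.98-fold lower, adjusted p = 0.190). A second, dimmer Cyp7a1 probe set, 1422100_at, gave 39.71, 86.86 and 57.31 in KO ND livers, against 102.70, 87.41 and 67.31 in WT ND livers, and a difference of -0.54 (adjusted p = 0.428 in a fit of 22519 probe sets). There the groups overlapped. The summed hepatocyte markers were also lower in the KO ND arrays, with a median log2 difference of -0.21 over 11 genes and 1 gene called, and their part in the Cyp7a1 difference was not tested.

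On HFD the Cyp7a1 signals were 480.26, 496.92 and 748.11 in KO livers, against 1212.77, 508.28 and 801.52 in WT livers. The groups overlapped, and the difference of -0.49 ± 0.39 did not pass the test (95% interval -1.34 to 0.36, adjusted p = 0.501). Between diets Cyp7a1 differed by 1.08 ± 0.39 in KO livers (adjusted p = 0.0798, and 0.0405 with those groups fitted alone), where each HFD array lay above each ND array, and by -0.13 ± 0.39 in WT livers (adjusted p = 0.872). The genotype difference was 1.21 ± 0.56 higher on HFD than on ND, which did not pass the test (unadjusted p = 0.0497, adjusted p = 0.322). Averaged over the diets, Cyp7a1 was 2.13-fold lower in KO than in WT (-1.09 ± 0.28, adjusted p = 0.0242). That call was lost without KO mouse 427 (adjusted p = 0.0611), WT mouse 546 (0.0579), WT mouse 687 (0.0508) or KO mouse 718 (0.0533), without the variance trend (0.0564) and with the mean of both probe sets (-0.75, 0.0954).

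Cyp8b1, the enzyme that directs synthesis towards cholic acid, was lower on HFD than on ND in KO livers. Its signals were 2832, 2340 and 1831 in KO HFD livers, against 3352, 4360 and 3589 in KO ND livers. The groups did not overlap, and the difference was -0.70 ± 0.18 (1.63-fold lower, adjusted p = 0.0184). Without KO HFD mouse 429 it was -0.54 (adjusted p = 0.0826) and without KO ND mouse 719 it was -0.59 (adjusted p = 0.0744). In WT livers the signals were 4002, 2442 and 3170 on HFD, against 4405, 4822 and 4502 on ND. Here too the groups did not overlap, but the difference of -0.54 ± 0.18 missed the threshold (adjusted p = 0.0656), and it was -0.72 (adjusted p = 0.0332) without WT HFD mouse 546. The KO and WT livers did not differ past the test on HFD (-0.45 ± 0.18, adjusted p = 0.152) or on ND (-0.29 ± 0.18, adjusted p = 0.384), although on ND each KO array lay below each WT array. Averaged over the genotypes Cyp8b1 fell by 0.62 ± 0.13 on HFD (adjusted p = 0.00337).

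Cyp27a1, the mitochondrial enzyme that starts the alternative pathway and also oxidises the sterol side chain, was lower on HFD in both genotypes. Its signals were 2067, 2023 and 1921 in KO HFD livers, against 3315, 3383 and 3425 in KO ND livers. In WT livers they were 2070, 2106 and 2234 on HFD, against 3488, 3312 and 2607 on ND. HFD arrays all lay below ND arrays, and one WT ND array, mouse 690, lay below the rest of its diet. The differences were -0.75 ± 0.10 in KO (1.68-fold, adjusted p = 0.000651) and -0.54 ± 0.10 in WT (1.46-fold, adjusted p = 0.00574). The genotypes differed by -0.09 ± 0.10 on HFD and 0.12 ± 0.10 on ND, with adjusted p-values of 0.641 and 0.558 and 95% intervals within 0.34 of 0 in each case. A second Cyp27a1 probe set had signals of at most 11.39 on the liver arrays and did not pass the filter, and with the mean of both the diet differences were 0.14 in KO (adjusted p = 0.852) and -0.82 in WT (adjusted p = 0.195).

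Cyp39a1, a hydroxylase of oxysterols in the alternative routes, had the largest diet difference among the 10 genes. Its signals were 68.2, 46.35 and 44.43 in KO HFD livers, against 207.96, 315.95 and 216.15 in KO ND livers. In WT livers they were 24.25, 39.4 and 35.42 on HFD, against 433.07, 529.07 and 239.91 on ND. Within each genotype each HFD array lay far below each ND array. Cyp39a1 fell by 2.22 ± 0.29 in KO livers (4.66-fold, adjusted p = 0.000437) and by 3.56 ± 0.29 in WT livers (11.8-fold, adjusted p = 5.7e-05).

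The Cyp39a1 genotype differences ran in opposite directions on the 2 diets, and neither passed the test. KO livers stood 0.68 ± 0.29 above WT livers on HFD, without overlap (adjusted p = 0.176), and differed from them by -0.65 ± 0.29 on ND, with overlap (adjusted p = 0.219). The test of the difference between these effects gave 1.34 ± 0.41 (unadjusted p = 0.00603, adjusted p = 0.143), and 1.67 (adjusted p = 0.0464) without WT ND mouse 690.

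**Figure D2:**
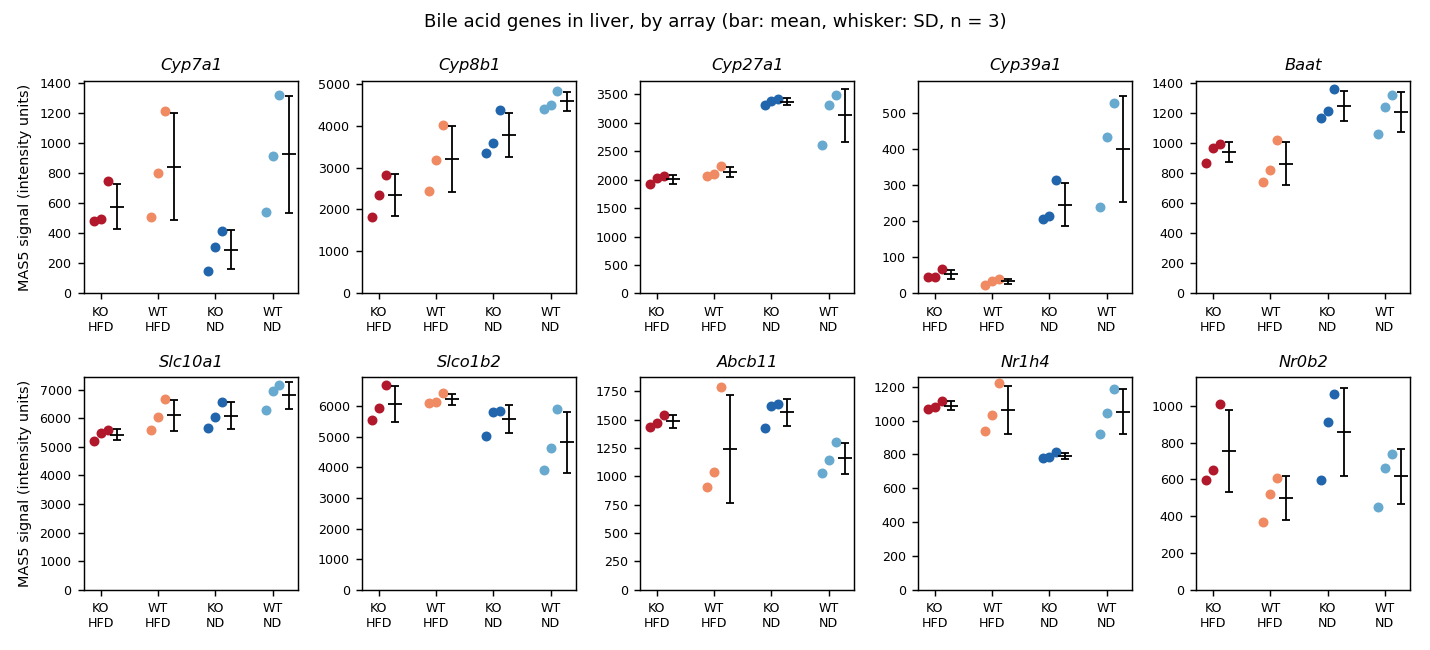
MAS5 signal of each of the 10 genes on the 12 liver arrays, on linear axes from 0, with points for arrays and the mean and SD (n = 3) beside them, in the order KO HFD, WT HFD, KO ND and WT ND. Cyp27a1 and Cyp39a1 separate by diet, from 1921 to 2234 on HFD for Cyp27a1, while Cyp7a1 in KO ND livers lies at 151.63 to 411.34, below all the other arrays of that gene.

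Baat, the ligase that joins bile acids to taurine or glycine, was modestly lower on HFD. Its signals were 990, 964 and 867 in KO HFD livers, against 1166, 1360 and 1215 in KO ND livers. In WT livers they were 743, 823 and 1022 on HFD, against 1316, 1237 and 1060 on ND. Within each genotype the diets did not overlap. The differences were -0.41 ± 0.13 in KO (1.33-fold, adjusted p = 0.0437) and -0.49 ± 0.13 in WT (1.40-fold, adjusted p = 0.0254). The KO call was lost without any 1 of the 6 KO mice, with adjusted p-values of 0.0661 to 0.150, and without WT HFD mouse 547 (0.0560). The WT call was lost without WT mouse 546 (0.102), 547 (0.0859), 686 (0.0737) or 687 (0.0720), without the variance trend (0.0592) and with the compared groups alone (0.0870). The KO call was also lost without the trend (0.0828) and without the filter (0.0644). A second probe set, 1419001_at, gave -0.39 (adjusted p = 0.0893) in KO and -0.65 (adjusted p = 0.0128) in WT. The genotypes did not differ past the test on HFD (0.14 ± 0.13, adjusted p = 0.566) or on ND (0.05 ± 0.13, adjusted p = 0.848).

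Some clock genes also differed between the diets, and the hour of collection is not known here. Of 15 tested clock genes, 6 rose and 2 fell on HFD in KO livers (median 0.38), against 16.5% of all genes called. In WT livers 4 rose and 0 fell (median 0.61), against 12.5% of all genes called. Dbp, a clock-driven activator whose binding word is the D-box searched above, had signals of 1489.28, 2302.78 and 2527.31 in KO HFD livers, against 172.02, 98.63 and 126.41 in KO ND livers. In WT livers it had 2151.3, 2087.35 and 1524.67 on HFD, against 133, 97.39 and 619.66 on ND. It rose on HFD by 3.99 ± 0.50 in KO (adjusted p = 0.000373) and by 3.25 ± 0.50 in WT (adjusted p = 0.00189), and the WT ND array of mouse 690 stood above the other ND arrays. The summed clock signal was 5729 to 7077 in KO HFD, against 2850 to 3742 in KO ND livers, and 4911 to 6285 in WT HFD, against 2429 to 4047 in WT ND livers. Between genotypes 0 of 15 were called on HFD, against 6.71% of all genes, and 1 on ND, against 4.71% of all genes. The gene called was Ciart, a repressor of the clock loop, which fell by 2.40 ± 0.57 in KO livers (adjusted p = 0.0307). Its call was kept in 10 of 17 alternatives, with adjusted p-values of up to 0.0896. The part of the clock genes in the differences of Cyp7a1, Cyp8b1, Cyp27a1, Cyp39a1 and Baat was not tested.

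Slc10a1, the sodium-dependent carrier that takes up most conjugated bile acids, was not called with its brightest probe set in any liver comparison of genotype or diet. The signals were 5196, 5594 and 5491 in KO HFD livers and 6032, 5591 and 6665 in WT HFD livers, and they were 6578, 5652 and 6045 in KO ND livers and 6279, 7173 and 6936 in WT ND livers. HFD and ND differed by -0.16 ± 0.10 both in KO (adjusted p = 0.266) and in WT (adjusted p = 0.316). A second Slc10a1 probe set, 1450261_a_at, gave 2940.38, 2912.89 and 2838.68 in KO HFD livers, against 5023.76, 4472.10 and 4223.76 in KO ND livers. In WT livers it gave 3044.88, 2858.16 and 3348.80 on HFD, against 4370.19, 5131.62 and 4787.71 on ND. On this probe set the diets did not overlap, and HFD livers were lower by -0.65 ± 0.10 in KO (1.57-fold, adjusted p = 0.000775) and -0.63 ± 0.10 in WT (1.54-fold, adjusted p = 0.00137). The 2 probe sets of 1 gene thus gave different calls for the diet, while neither was called between the genotypes. With their mean, HFD against ND was called in KO (-0.41, adjusted p = 0.0146) and in WT (-0.39, adjusted p = 0.0236).

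Slco1b2, a sodium-independent carrier of bile acids in the sinusoidal membrane, was likewise not called with its brightest probe set. Its signals were 5536, 5945 and 6704 in KO HFD livers, 6128, 6114 and 6415 in WT HFD livers, 5811, 5036 and 5855 in KO ND livers and 4641, 3912 and 5897 in WT ND livers. HFD against ND gave 0.26 ± 0.09 averaged over the genotypes (adjusted p = 0.0618), which passed with quantile normalization (0.30, adjusted p = 0.0129) and without WT ND mouse 690 (0.33, adjusted p = 0.00948). In WT it gave 0.39 ± 0.13 (adjusted p = 0.0728) with no overlap, and it passed with quantile normalization (0.40, adjusted p = 0.0299) and without WT ND mouse 690 (0.55, adjusted p = 0.0137). Of its other probe sets, 1452494_s_at gave 4480.34, 4189.10 and 4925.72 in KO ND livers, against 3321.91, 2317.75 and 3629.80 in WT ND livers. It was higher in KO on ND by 0.58 ± 0.14 (adjusted p = 0.0406) and higher on HFD in WT by 0.65 ± 0.14 (adjusted p = 0.00921).

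The much dimmer Slco1b2 probe set 1427826_a_at gave 116.24, 127.75 and 108.98 in KO HFD livers, 74.63, 79.17 and 112.40 in WT HFD livers, 314.69, 407.94 and 409.17 in KO ND livers and 174.83, 90.20 and 169.06 in WT ND livers. Its KO ND arrays were the high ones. It was higher in KO than in WT on ND by 1.43 ± 0.24 (adjusted p = 0.00714), and lower on HFD than on ND in KO by -1.67 ± 0.24 (adjusted p = 0.000596), a direction opposite to the sign of the brightest probe set (0.12 ± 0.13, adjusted p = 0.576). The annotation does not say which transcripts each probe set reads, and 2 more Slco1b2 probe sets did not pass the filter.

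**Figure D3:**
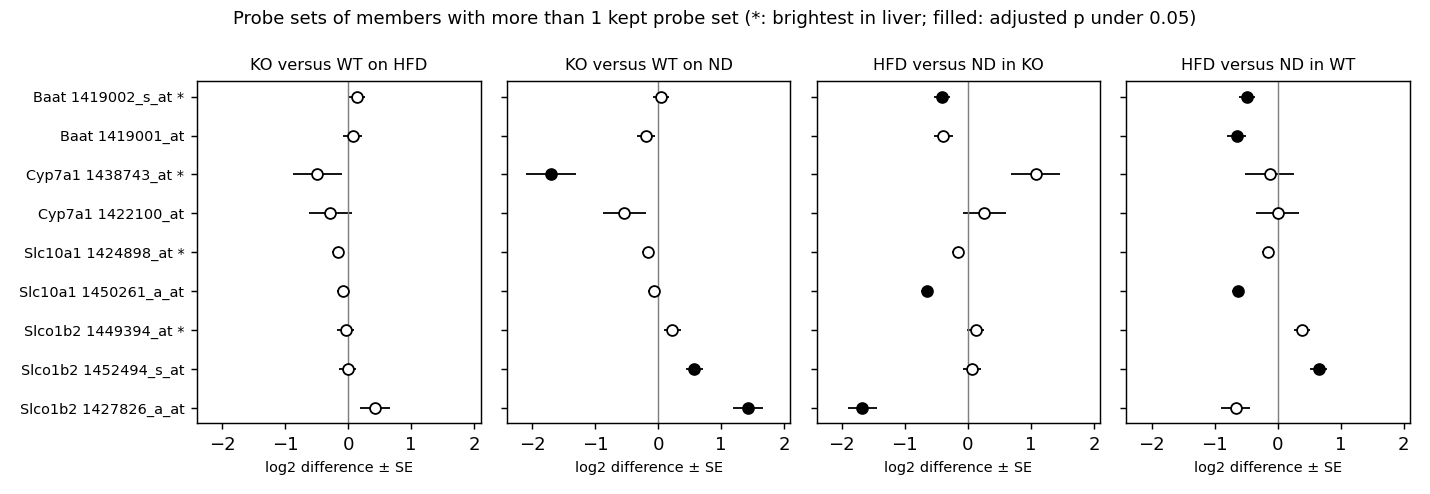
Log2 differences ± SE for each probe set that passed the filter in members with more than 1 such probe set, in 4 panels for the genotype and diet comparisons in liver; the asterisk marks the brightest probe set and filled points passed an adjusted p of 0.05. The 2 Slc10a1 probe sets lie apart in the diet panels, at -0.16 and -0.65 in KO, and Slco1b2 1427826_a_at lies at -1.67 in KO where the brightest lies at 0.12.

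Abcb11, the pump that exports bile salts into the canaliculus, was not called in any liver comparison of genotype or diet. Its signals were 1547, 1435 and 1474 in KO HFD livers, against 905, 1035 and 1792 in WT HFD livers. On ND they were 1639, 1432 and 1623 in KO livers, against 1304, 1146 and 1034 in WT livers. On ND each KO array lay above each WT array, and on HFD the WT array of mouse 560 lay above all the KO arrays. The genotype differences were 0.32 ± 0.19 on HFD (adjusted p = 0.346) and 0.43 ± 0.19 on ND (adjusted p = 0.219). Without WT HFD mouse 560 they were 0.62 on HFD (adjusted p = 0.0116) and 0.43 on ND (adjusted p = 0.0349), and that array also enters the spread shared by the groups. Between diets Abcb11 differed by -0.07 ± 0.19 in KO and 0.04 ± 0.19 in WT (adjusted p-values of 0.834 and 0.924).

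Nr1h4, the bile acid receptor FXR, was higher on HFD than on ND in KO livers. Its signals were 1067, 1081 and 1117 in KO HFD livers, against 782, 777 and 813 in KO ND livers. In WT livers they were 1031, 1219 and 936 on HFD, against 923, 1186 and 1047 on ND. The KO ND arrays lay below the other 9 arrays, and the KO arrays were tighter than the WT arrays. HFD against ND gave 0.46 ± 0.11 in KO (1.38-fold higher, adjusted p = 0.0155) and 0.01 ± 0.11 in WT (adjusted p = 0.962). Without KO HFD mouse 429 the KO difference was 0.44 (adjusted p = 0.0538). The genotypes differed by -0.41 ± 0.11 on ND without overlap, which missed the threshold (adjusted p = 0.0591), and by 0.04 ± 0.11 on HFD (adjusted p = 0.851). The ND difference was -0.50 (adjusted p = 0.0327) without WT ND mouse 686, and it passed without WT HFD mouse 560 (adjusted p = 0.0449) and with quantile normalization (-0.45, adjusted p = 0.0465). The test of the difference between the genotype effects gave 0.45 ± 0.16 (adjusted p = 0.197). Averaged over the genotypes Nr1h4 rose by 0.24 ± 0.08 on HFD (adjusted p = 0.0446), a call that was lost without any 1 of 10 mice, with adjusted p-values of up to 0.112, and with quantile normalization (0.0868), without the filter (0.0633), without the variance trend (0.0814) and with averaged probe sets (0.0538).

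Nr0b2, the repressor SHP and a target of Nr1h4, was not called in any liver comparison of genotype or diet. Its signals were 1011, 597 and 654 in KO HFD livers, against 370, 606 and 520 in WT HFD livers. On ND they were 597, 914 and 1064 in KO livers, against 450, 741 and 662 in WT livers. The groups overlapped on both diets. KO stood above WT by 0.59 ± 0.26 on HFD (unadjusted p = 0.0439, adjusted p = 0.202) and 0.47 ± 0.26 on ND (adjusted p = 0.335), and by 0.53 ± 0.19 averaged over the diets (adjusted p = 0.0851). Without KO ND mouse 718 that average was 0.65 (adjusted p = 0.0468).

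Other genes of the same pathways were taken from lists chosen by function with earlier results of these data known. Some of their called genes are named. The counts in these lists stand beside shares of all genes called of 6.71% on HFD and 4.71% on ND for KO against WT. For HFD against ND the shares were 16.5% in KO and 12.5% in WT. Of 18 other synthesis genes, 0 rose and 1 fell in KO livers on HFD (median -0.15), and 0 were called on ND (median 0.01). The one that fell was Cyp7b1, the oxysterol hydroxylase that acts after Cyp27a1 in the alternative pathway. It had 2345.93, 2967.52 and 4588.18 in KO HFD livers, against 9554.19, 6179.23 and 7253.24 in WT HFD livers, with no overlap. The difference was -1.25 ± 0.24 (2.38-fold, adjusted p = 0.00897). On ND the Cyp7b1 signals were 3313.28, 3637.91 and 2735.25 in KO livers, against 7526.34, 5404.83 and 4585.57 in WT livers, also without overlap, and averaged over the diets it was lower in KO by -1.04 ± 0.17 (2.06-fold, adjusted p = 0.00235).

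Between diets 0 of the 18 synthesis genes rose and 3 fell in KO livers, and 2 rose and 2 fell in WT livers. The thioesterases Acot12 and Acot8 fell on HFD in both. Acot12, a cytosolic acetyl-CoA hydrolase, had 673.49, 660.41 and 686.12 in KO HFD livers, against 1406.71, 1387.58 and 1295.09 in KO ND livers. It fell by 1.02 ± 0.11 in KO (adjusted p = 0.000121) and by 0.69 ± 0.11 in WT (adjusted p = 0.00215). Averaged over all its probe sets, these were -0.08 in KO and no longer called in either genotype. Acot8, a peroxisomal thioesterase, fell by 0.64 ± 0.12 in KO (adjusted p = 0.00408) and by 0.51 ± 0.12 in WT (adjusted p = 0.0160). Acox2, the peroxisomal oxidase of the bile acid side chain, fell by 0.38 ± 0.11 in KO (adjusted p = 0.0375), and Akr1c14, a ketosteroid reductase, rose in WT by 0.81 ± 0.19 (adjusted p = 0.0144). Over 17 alternatives the call was kept in 10 for Acox2 and, in WT, in 14 for Acot8 (lost without mouse 546, 687 or 690) and 15 for Akr1c14 (lost without mouse 546 or 687), with adjusted p-values of up to 0.128, 0.0591 and 0.0614.

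Of 15 tested other transporters, 3 rose and 1 fell in KO livers on HFD (median 0.17), and 3 rose and 1 fell on ND (median 0.36), beside medians of -0.03 and -0.05 over all genes. Abcc3, which exports bile acids back into blood across the basolateral membrane, rose on both diets. It had 1800.69, 1790.31 and 1522.28 in KO HFD livers, against 961.94, 900.73 and 1264.54 in WT HFD livers. On ND it had 1897.95, 2117.19 and 1808.79 in KO livers, against 834.54, 754.40 and 926.78 in WT livers. No KO array overlapped a WT array of its diet. The differences were 0.72 ± 0.13 on HFD (1.65-fold, adjusted p = 0.00730) and 1.21 ± 0.13 on ND (2.32-fold, adjusted p = 0.000336). Averaged over the diets, Abcc3 was 1.95-fold higher in KO (adjusted p = 4.76e-05), and Abcc2, the canalicular exporter of conjugates, was lower by -0.57 ± 0.11 (adjusted p = 0.00525).

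Slco1a1, an uptake carrier of the sinusoidal membrane, had 706.72, 1506.44 and 854.37 in KO HFD livers, against 2795.97, 2688.63 and 2338.68 in WT HFD livers. On ND it had 1933.50, 1476.87 and 1730.35 in KO livers, against 1447.63, 968.08 and 1318.95 in WT livers. The KO arrays were the lower ones on HFD and the higher ones on ND. Slco1a1 was 2.68-fold lower in KO on HFD (-1.42 ± 0.23, adjusted p = 0.00335), and of the 15 it was the only one whose genotype difference passed the test between diets (-1.90 ± 0.33, adjusted p = 0.0197). That interaction was lost without KO HFD mouse 429, without KO ND mouse 718 or 720 and without the variance trend, with adjusted p-values of up to 0.0755. It moved oppositely with diet in the genotypes, by -0.81 ± 0.23 in KO (adjusted p = 0.0287) and by 1.08 ± 0.23 in WT (adjusted p = 0.00959).

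Slc10a2, the apical sodium-dependent carrier known from ileum and bile duct cells, had 121.45, 257.15 and 231.13 in KO ND livers, against 17.14, 16.97 and 31.21 in WT ND livers. The WT ND arrays were the low ones of all 12. It was 9.26-fold higher in KO on ND (3.21 ± 0.47, adjusted p = 0.00279) and higher by 2.17 ± 0.47 on HFD than on ND in WT (adjusted p = 0.0111), a call lost without WT HFD mouse 547 (adjusted p = 0.0533). The cholangiocyte markers had low signals. The sum of 7 was 75.0 to 103 in KO ND livers and 88.8 to 98.9 in WT ND livers, and 0 of the 3 that passed the filter were called. At such low signals a change in bile duct cells could be missed, and their part in the Slc10a2 difference was not tested. Slco1a4, another uptake carrier, was lower on HFD in both genotypes, at 273.1, 325.99 and 228.28 in KO HFD livers, against 715.51, 1249.32 and 744.59 in KO ND livers. It fell by 1.68 ± 0.30 in KO (adjusted p = 0.00259) and by 1.70 ± 0.30 in WT (adjusted p = 0.00344). In the diet comparisons 2 of 15 transporters rose and 3 fell in KO livers, and 4 rose and 2 fell in WT livers.

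**Figure D4:**
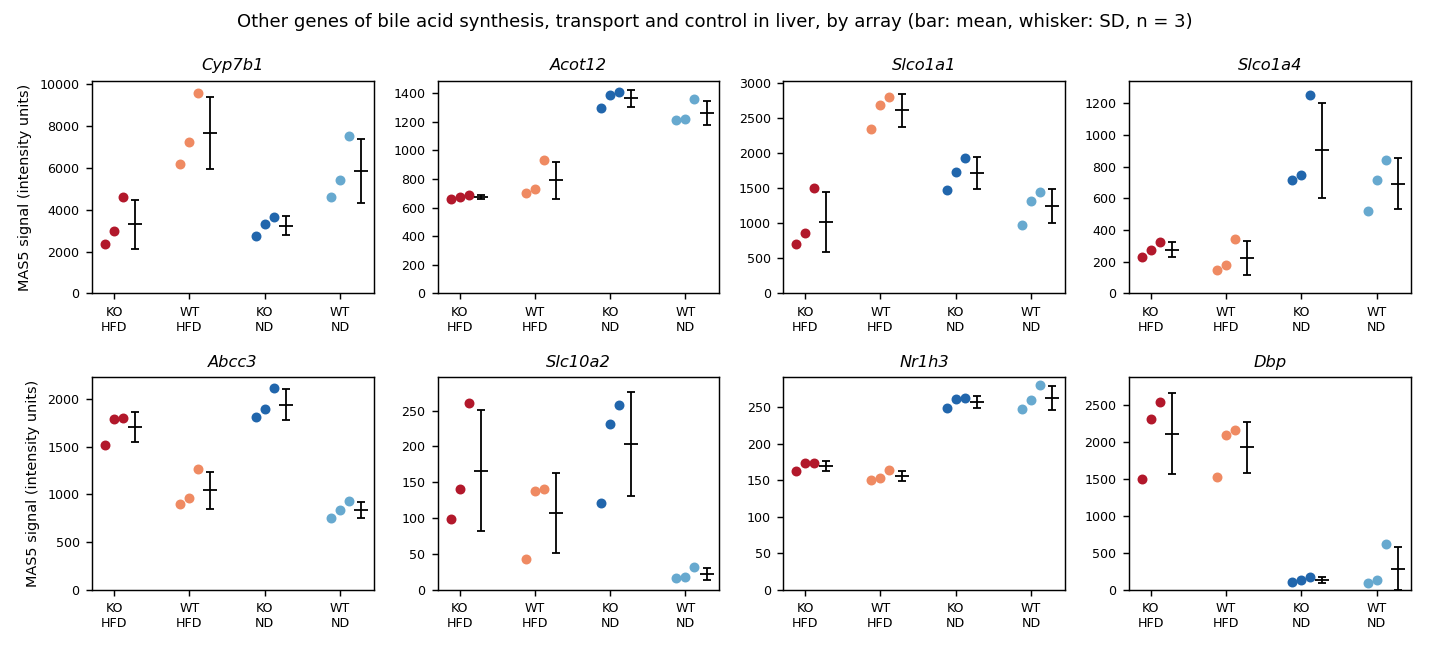
MAS5 signal of 8 other genes of bile acid synthesis, transport and control on the 12 liver arrays, on linear axes from 0, with points for arrays and the mean and SD (n = 3) beside them, in the order KO HFD, WT HFD, KO ND and WT ND. Abcc3 separates by genotype, Dbp and Nr1h3 separate by diet, and Slc10a2 is low, at 16.97 to 31.21, in WT ND livers.

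Among 17 tested regulators 1 rose and 0 fell in KO livers on HFD, and 0 were called on ND. With diet, 3 rose and 6 fell in KO livers (median -0.21), and 4 rose and 3 fell in WT livers (median -0.06). Nr1h3, the oxysterol receptor LXR alpha that induces Cyp7a1 in mice, had 162.14, 172.97 and 173.91 in KO HFD livers, against 263.02, 248.29 and 260.67 in KO ND livers. In WT livers it had 150.22, 152.78 and 163.33 on HFD, against 280.17, 248.14 and 259.84 on ND. The diets did not overlap in either genotype. Nr1h3 fell by 0.60 ± 0.10 in KO (adjusted p = 0.00212) and by 0.76 ± 0.10 in WT (adjusted p = 0.000820).

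Regulators also rose on HFD, Nr2f2 by 0.97 in KO livers (adjusted p = 0.00123) and Cebpa by 1.27 in WT livers (adjusted p = 0.00253). Averaging the Nr2f2 probe sets left that gene uncalled (adjusted p = 0.275), and Cebpa stayed called in 17 of 17 alternatives. The coactivator Ppargc1a fell by 1.45 ± 0.24 in KO livers (adjusted p = 0.00165) and by 1.30 ± 0.24 in WT livers (adjusted p = 0.00418). In KO livers the activator Hnf4a fell by 0.67 ± 0.13 (adjusted p = 0.00553), and the xenobiotic receptors Nr1i3 and Nr1i2 fell by 1.08 ± 0.21 and 0.95 ± 0.19 (adjusted p-values of 0.00492 and 0.00595). The detoxifying enzyme Cyp3a11 fell on HFD by 0.49 ± 0.14 in KO (adjusted p = 0.0313) and by 1.15 ± 0.14 in WT (adjusted p = 0.000447), while Cyp2b10 fell by 4.35 ± 0.74 in WT (adjusted p = 0.00300). In KO livers on HFD Cyp3a11 rose by 0.59 ± 0.14 relative to WT (adjusted p = 0.0264). The Cyp3a11 calls between genotypes and between diets in KO were kept in 10 and 9 of 17 alternatives, with adjusted p-values of up to 0.1003 and 0.0982. Of the 4 tested detoxification genes, 0 others were called between genotypes.

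Genes of the liver zones were read because bile acid enzymes are unevenly spread over the lobule. Of 8 periportal genes 0 rose and 4 fell on HFD in KO livers, and 0 rose and 6 fell in WT livers, with Asl of the urea cycle falling by 1.65 ± 0.16 and 1.61 ± 0.16 (adjusted p-values of 6.69e-05 and 0.000141). Between KO and WT, 1 periportal gene rose and 3 fell on each diet, Asl by -0.94 ± 0.16 on HFD and -0.89 ± 0.16 on ND (adjusted p-values of 0.00504 and 0.00903). The periportal gene that rose was Hsd17b13, by 0.68 on HFD and 0.38 on ND (adjusted p-values of 0.000905 and 0.0333). Its ND call was kept in 8 of 17 alternatives. Of 10 pericentral genes 1 rose and 1 fell on HFD in KO, and 0 rose and 1 fell in WT. In KO against WT on HFD, Rhbg rose by 1.45 (adjusted p = 0.00532) and Cyp2e1 fell by 0.37 (adjusted p = 0.0305). The Cyp2e1 call was kept in 9 of 17 alternatives. Of 10 tested macrophage markers, 5 rose and 0 fell on HFD in KO livers, with a summed signal of 6026 to 8256 on HFD and 3590 to 4552 on ND, and 1 rose and 0 fell in WT livers, with 5137 to 6334 on HFD and 3799 to 5943 on ND. The part of zonation and of macrophages in the member differences was not tested.

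Nearest patterns were sought by the root mean square difference of centred log2 signals over the 12 liver arrays. Likeness on these same arrays picked the genes, so their group means are description only. For Cyp7a1 the nearest genes were Sult5a1, Car7 and Extl1, at 0.43, 0.45 and 0.46, beside 0.88 for the median gene. Sult5a1 averaged 92.2 in KO ND, against 233.8 in WT ND livers, and Car7 averaged 10.2 in KO ND, against 29.1 in WT ND livers. The Car7 signals in KO ND livers, 6.7 to 13.65, lay around the filter level of 12.95. For Cyp8b1 they were Prss29, Flad1 and Dohh, each at 0.19, beside 0.51 for the median gene, and Flad1 averaged 177.5 in KO HFD, 218.8 in WT HFD, 311.1 in KO ND and 371.9 in WT ND livers. For Nr0b2 they were Myo1d, Prune1 and Ap2a2, at 0.24, 0.26 and 0.26, beside 0.54 for the median gene.

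In epididymal adipose tissue 8 of the 10 genes lay below the filter, a mean signal of 19.3, and had only low signals. All 10 were higher in liver than in adipose tissue in the joint fit of 24 arrays. There 82% of all 11365 genes differed, 3534 higher in liver and 5785 lower. The probe sets were picked by their liver signal, which favours liver, so this comparison is description only. Cyp27a1 was higher by 3.69 ± 0.07 and Cyp39a1 by 1.85 ± 0.13. Against the filter level, or the adipose signal where higher, the 8 dim genes were at least 29.3-fold (Cyp7a1) to at least 288-fold (Slc10a1) higher in liver. The mean signals were 6103 ± 628 in liver and 14.3 ± 10.1 in adipose tissue for Slc10a1, 1364 ± 280 and 9.13 ± 3.81 for Abcb11 and 998 ± 152 and 10.1 ± 3.22 for Nr1h4 (SD, n = 12 mice). Liver arrays lay above all the adipose arrays for each gene but Cyp39a1.

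**Figure D5:**
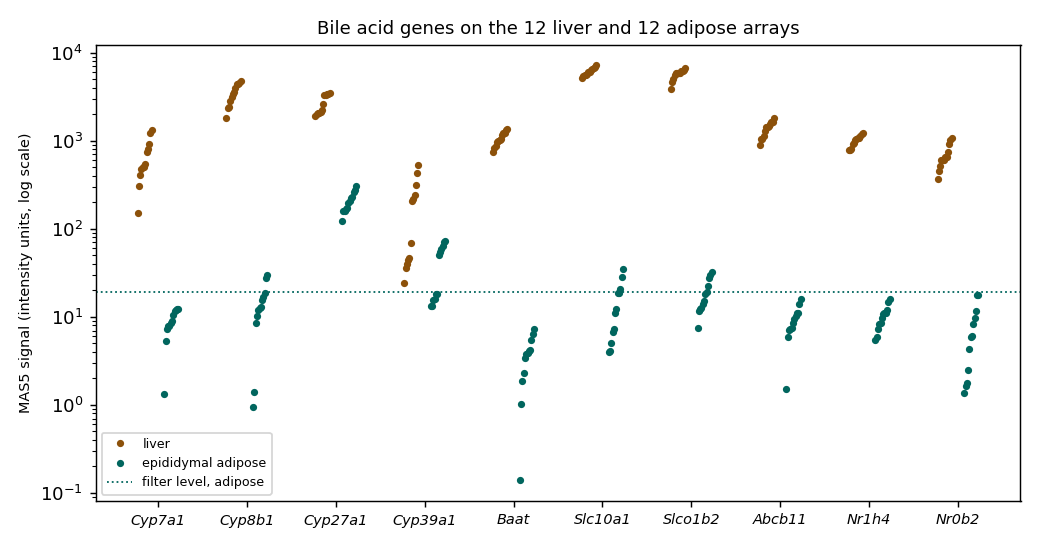
MAS5 signal of the 10 genes on 12 liver and 12 adipose arrays, on a log axis, with a point for each array and a dotted line at the adipose filter level of 19.3. Liver and adipose points are separate for 9 of the genes, and the Cyp39a1 points overlap, at 24.25 to 529.07 in liver and 13.16 to 72.99 in adipose tissue.

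Cyp27a1 was measured in adipose tissue at 168.15, 229.08 and 194.94 in KO HFD, 259.2, 309.6 and 279.1 in WT HFD, 221.43, 172.63 and 208.62 in KO ND and 122.2, 157.35 and 158.2 in WT ND mice. The WT HFD arrays were the highest and the WT ND arrays the lowest, with the KO arrays of both diets between them. On HFD Cyp27a1 was 1.44-fold lower in KO (-0.53 ± 0.16, adjusted p = 0.0326), 1 of the 2 tested members called, against 22.4% of all 11372 genes. This call was lost without KO mouse 427 (-0.42, adjusted p = 0.0946) or 429 (-0.52, 0.0836), or without WT mouse 546 (-0.59, 0.0506), 547 (-0.46, 0.0926) or 560 (-0.53, 0.0812), with quantile normalization (0.0612), with those groups fitted alone (0.0597) and with its probe sets averaged (-0.23, 0.656), where the dim second probe set enters. On ND the KO tissue stood 0.46 ± 0.16 above WT, without overlap and without a call (adjusted p = 0.221), and 0 of 2 members were called, against 0.264% of all genes.

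With diet, adipose Cyp27a1 rose by 0.96 ± 0.16 in WT (1.95-fold, adjusted p = 0.000379) and differed by -0.03 ± 0.16 in KO (adjusted p = 0.891). The genotype difference was -0.99 ± 0.22 lower on HFD than on ND (adjusted p = 0.0190), 1 of 2 members called, against 10.8% of all genes, and without KO ND mouse 718 it was -0.91 (adjusted p = 0.0531). The summed macrophage markers, of cells that are also known to express Cyp27a1, were 10943 to 17918 in KO HFD, 4890 to 7762 in WT HFD, 2547 to 3274 in KO ND and 1687 to 2017 in WT ND tissue. The adipocyte sum was 10075 to 17133 in KO HFD, 17202 to 18417 in WT HFD, 9733 to 10290 in KO ND and 6465 to 11294 in WT ND tissue. The ND tissue also held epididymis markers, given with Cyp39a1 below, that were low on HFD. Tissue admixture and diet cannot be told apart in the Cyp27a1 diet differences and in the difference between the genotype effects, and the part of macrophages and adipocytes was not tested.

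Cyp39a1 had 15.82, 13.28 and 18.02 in KO HFD and 13.16, 15.59 and 18.24 in WT HFD tissue, against 58.74, 55.09 and 50.87 in KO ND and 72.99, 71.18 and 63.15 in WT ND tissue. Diets did not overlap. All 6 HFD signals lay below the filter level of 19.3, so the gene passed the filter only through its ND arrays and the sizes of the falls rest on signals under that level. Its signal was lower on HFD by 1.81 ± 0.21 in KO and by 2.15 ± 0.21 in WT, values that are given as description only. With both comparisons read, 1 of 2 members was called in KO, against 48.3% of all genes, and 2 of 2 in WT, against 55.1% of all genes. These counts include Cyp39a1 and are likewise description only. Epididymis markers were present in the ND tissue, with a summed signal over 4 genes of 17.4 to 40.2 in KO HFD and 10.6 to 15.9 in WT HFD, against 20509 to 26393 in KO ND and 18151 to 29104 in WT ND tissue. The cholangiocyte list, whose keratins and Epcam mark epithelia at large, summed to 61.0 to 1424 in KO HFD and 112 to 331 in WT HFD, against 5576 to 6575 in KO ND and 4964 to 6155 in WT ND tissue. Tissue admixture and diet cannot be told apart for Cyp39a1 in these adipose arrays.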

How the data were processed

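Total RNA of liver and epididymal adipose tissue was hybridised to 24 Affymetrix arrays. The deposited values are linear MAS5 signals, an intensity per probe set, made by the authors with MAS5 per the submitters' processing notes, and no version is named there. Array means, with 2% trimmed at each end, were 100.03 to 100.05, and no 2 arrays held identical values. Arrays have no read depth, so their number (3 per group) limits the precision.

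Of 45101 probe sets 64 were controls, 34945 had 1 gene symbol, 932 several and 9160 none in the platform's annotation. Each gene was represented by the probe set of highest mean log2 signal in liver. Signals under the 10th percentile of a tissue (1.10 in liver, 1.08 in adipose tissue) were raised to it, log2 was taken, and genes whose mean reached the median probe set (12.95 and 19.3 intensity units) were tested: 11125 in liver, 11372 in adipose tissue and 11365 in both. Group means were fitted with limma 3.58.1 in R 4.3.3 (lmFit, eBayes with a variance trend, 2-sided), with Benjamini-Hochberg adjustment over all tested genes and a call at 0.05. Each adjusted p in the text is such a value. The 12 arrays of a tissue shared 1 estimate of spread (8 residual degrees of freedom). The interaction is the KO minus WT difference on HFD minus that on ND. The tissue comparison was repeated with the mouse as a replicate block, because both tissues came from the same animals. Deviations from the group means correlated at 0.00196 to 0.0798 between the tissues of a mouse.

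The scripts were tested on simulated data. The members and gene lists were chosen with earlier results of these data known. Genes named from the other lists were drawn from the 3 called genes of smallest p per comparison, not all of which are named. Further ones named beside them were chosen after their values were seen. Alternatives were quantile normalization, no filter, a pseudocount of 16 in place of the floor, averaging all probe sets of a gene, no variance trend, a fit of the compared groups alone and leaving out each array. Promoter windows came from RefSeq tables of GRCm38.p6, and 7 of 10 members had one. Detection calls were not used here.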

Additional observations from a re-analysis of the deposited data

Results flagged for a closer look

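One result stood out because the effect of genotype differed between the diets by a test of the difference itself. In adipose tissue the KO minus WT difference of Cyp27a1 was -0.99 ± 0.22 lower on HFD than on ND (limma, adjusted p = 0.0190), with a KO minus WT difference of -0.53 on HFD and 0.46 on ND. All 3 KO arrays lay below the 3 WT arrays on HFD and above them on ND. The adipose interaction was added after the data were seen, and the call was lost without KO ND mouse 718 (-0.91, adjusted p = 0.0531) and with the mean of the probe sets (-0.46, adjusted p = 0.547), where the dim second probe set enters. The summed epididymis markers were 17.4 to 40.2 in KO HFD and 10.6 to 15.9 in WT HFD tissue, against 20509 to 26393 in KO ND and 18151 to 29104 in WT ND tissue, so tissue admixture and diet cannot be told apart here. In liver the same test for Cyp27a1 gave -0.21 ± 0.15 (adjusted p = 0.540), and whether the tissues differ in it was not tested.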

How the results depend on the processing

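Of 1718 recomputed member values 1642 stayed on their side of the threshold with no called value turning its sign (signs of uncalled values were not counted), 57 lost the call, 18 gained one and 1 reversed. For the 30 called results, 596 of 654 values kept the call. Of these results 10 were tissue comparisons, each kept in all 30 alternatives, which raises the total. In liver, Cyp39a1 on HFD against ND in KO was kept in 18 of 18. Baat in the same comparison was kept in 9 of 18, Cyp7a1 averaged over the diets in 11 of 17 and Nr1h4 averaged over the genotypes in 3 of 17. The reversed value was Cyp27a1 on HFD against ND in KO livers, at 0.14 with the mean of the probe sets, where the dim second probe set enters. Slco1b2 probe set 1427826_a_at gave -1.67 for HFD against ND in KO and -1.17 averaged over the genotypes. With the mouse as a replicate block, the same 10 members were called between the tissues, and 9317 genes in all, which is likewise description only.

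For KO against WT on ND in liver, the members called were 2 with quantile normalization and 0 with the mean of the probe sets, without the variance trend or without mice 718 and 686 together. All genes called there were 309 with the mean of the probe sets, 271 without the trend, 330 with the compared groups alone and 235 without mice 718 and 686. On HFD 477 genes were called without the trend. For the average over the diets, 0 members were called with the mean of the probe sets (745 genes) and 0 without the trend. Over the alternatives other than leaving out 1 array, 745 to 1354 genes were called for that average. In WT, HFD against ND called 846 genes with the mean of the probe sets and 629 with the compared groups alone. The liver interaction called 57 genes without the filter, 52 with the mean of the probe sets and 30 without the trend. In adipose tissue 0 members were called on HFD with quantile normalization, the mean of the probe sets or the compared groups alone, and 0 for the interaction with the mean of the probe sets. Over the alternatives other than leaving out 1 array, 1702 to 2573 genes were called on HFD and 848 to 1299 for the interaction. In KO adipose tissue 2 were called between diets without the filter. On ND 77 genes were called with quantile normalization, 18 without the filter, 18 with the mean of the probe sets and 19 without the trend. The causes of these shifts were not tested.

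Leaving out 1 array at a time gave, in liver, 0 to 1 members and 278 to 834 genes called for KO against WT on HFD, 0 to 3 members and 197 to 626 genes on ND, and 0 to 2 members and 756 to 1315 genes averaged over the diets. HFD against ND called 2 to 5 members and 1133 to 1979 genes in KO and 673 to 1384 genes in WT, and the interaction 0 to 1 members and 35 to 120 genes. In adipose tissue it gave 0 to 1 members and 1548 to 2833 genes for KO against WT on HFD, 4 to 365 genes on ND, and 0 to 1 members and 605 to 1431 genes for the interaction.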
